A study of Mus musculus with 20 samples.

Results

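Clusterin and the complement genes C3, Cfb, Cfd, Serping1 and Cd55 were examined in 7 fibroblast lines cloned from mouse Swiss 3T3 cells, and every probe set that the platform annotation assigns to these 6 symbols was taken. The annotation used here named a probe set for 4 of the 6 genes, namely Clu, Serping1, Cd55 and Cfb, out of 18193 genes with a probe set of their own. C3 and Cfd (adipsin) were not analysed here. The 4 genes had 9 probe sets of their own and 1 that Cd55 shares with Cd55b, out of 45037 that were not controls. The genes were selected on their intensities in these arrays, the same values described here, so differences in their levels are given without a p-value. No threshold is stated for the choice.

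The preadipose lines were Swiss 2, Swiss 8 and Swiss 9 with 3 arrays each and Swiss 19 with 2, and the non-adipogenic lines were Swiss 3, Swiss 5 and Swiss 22 with 3 arrays each. Each line was 1 clone of immortalized embryonic fibroblasts. All were kept in DMEM with 10% bovine serum, without induction of differentiation, and were collected while still dividing. No label tells whether the arrays of 1 line stem from independent cultures, and their spread may be technical. The design asks which genes set committed preadipose fibroblasts apart from fibroblasts that cannot become fat cells.

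Complement is a set of plasma proteins that tag and lyse microbes and clear debris. It starts through the C1 complex, through lectins that bind sugars, or through the alternative pathway, and all 3 routes cleave C3. Cfb and Cfd are the alternative pathway's proteases, and Cfd is known as adipsin because adipocytes secrete it. Serping1 encodes the C1 inhibitor, which blocks C1r, C1s and the lectin pathway proteases. Cd55, decay-accelerating factor, dissociates convertases on the cell's own surface. Clusterin is a secreted chaperone that binds the terminal complex and misfolded proteins. Fibroblasts are known to make several of these proteins.

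Mean intensity per array ran from 25.6 to 156.7, so levels are given as scaled intensity, in which each array has a trimmed mean of 500. Background was set from 27 control probe sets for bacterial transcripts that were not spiked in, at their 95th percentile, and lay between 76.8 and 144 in the 7 lines. By the level of 9 hybridization spikes the arrays fell into 11 dim ones (all of Swiss 2, Swiss 8 and Swiss 9, and replicates 1 and 2 of Swiss 3) and 9 bright ones (Swiss 19, Swiss 5, Swiss 22 and replicate 3 of Swiss 3). Each of the 20 arrays correlated best with another array of its own line. All 8 fibroblast markers were above background in all 7 lines, with a summed level of 271522 to 333221 in preadipose and 226188 to 247373 in non-adipogenic lines. The summed level of 10 macrophage and leukocyte markers was 2832 to 3074 in preadipose and 2402 to 3078 in non-adipogenic lines, with 5 of the 10 above background in all 7 lines (Csf1r, Adgre1, Cd68, Cd14 and Laptm5) and Ptprc in none. For 9 hepatocyte markers the sums were 377 to 654 and 540.0 to 725, with 5 of the 9 above background in at least 1 line, 0 in all 7, and Alb in none. For 8 adipocyte markers they were 1802 to 2839 and 1838 to 3039, with Fabp4, Retn, Pparg and Cebpa above background in all 7 lines, Adipoq in Swiss 3 alone, and Cidec, Lep and Cidea in none. For 8 endothelial markers they were 506 to 645 and 588 to 850, with 4 of the 8 above background in at least 1 line and 0 in all 7.

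Clusterin averaged lower in the preadipose lines than in the non-adipogenic lines, and it was highest in Swiss 3. On its brightest probe set, 1454849_x_at, the preadipose line Swiss 2 had Clu at 608, 603 and 885, Swiss 8 at 511, 234 and 512, Swiss 9 at 796, 1129.8 and 859, and Swiss 19 at 277 and 623. The non-adipogenic line Swiss 3 had it at 5899.6, 6422 and 7204, Swiss 5 at 1999.5, 1539 and 1774, and Swiss 22 at 859, 902 and 1019.9. All arrays of Swiss 3 and Swiss 5 lay above all preadipose arrays, while those of Swiss 22 lay among the arrays of Swiss 2 and Swiss 9. Clu was above background on all 20 arrays. Its class mean was 624 ± 238 (SD, n = 4 lines) in preadipose and 3069 ± 3009 (SD, n = 3 lines) in non-adipogenic lines, 4.92-fold lower in the preadipose class. The log2 difference on quantile-normalized values was -1.36. For these values 32 was added to the unscaled intensities, whose array medians were 4.1 to 23. Log2 differences of all genes here are therefore compressed against folds of scaled intensity. The log2 difference of Clu was -0.69 without Swiss 3 and between -1.27 and -1.86 without any other line.

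The 3 other Clu probe sets separated the classes completely by line means. On the brightest probe set of each gene, 13.9% of all genes did so, 7.53% of them with lower preadipose means as a share of all genes. Probe set 1437458_x_at gave Swiss 2 a mean of 407 ± 57.6, Swiss 8 109 ± 64.3 and Swiss 9 359.8 ± 103 (SD, n = 3 arrays each), and Swiss 19 199 ± 137 (SD, n = 2). It gave Swiss 3 a mean of 2474 ± 47.4, Swiss 5 789 ± 125 and Swiss 22 593 ± 44.7 (SD, n = 3 each). Its highest preadipose array, at 467, lay below its lowest non-adipogenic array, at 544. On 1437689_x_at the highest preadipose array had 244 and the lowest non-adipogenic array 405, again without overlap. On 1418626_a_at the highest preadipose array reached 386, in Swiss 2, and the lowest non-adipogenic array 298, in Swiss 22, so arrays of these lines overlapped although their line means of 188 ± 182 and 394 ± 89.6 were ordered like the others. The preadipose class was 4.78-fold lower on 1437458_x_at and 6.90-fold lower on 1418626_a_at. It was at least 7.35-fold lower on 1437689_x_at, where Swiss 19 was not above background. Probe sets of 1 gene share their transcript and their arrays, so they are not replicates, and names ending in x_at mark probe sets whose probes can also bind other transcripts.

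Without Swiss 3, the mean of Swiss 5 and Swiss 22 was 2.16-fold, 2.57-fold, 3.11-fold and at least 4.03-fold above the preadipose mean, in the order of the probe sets from brightest to dimmest. All arrays of Swiss 5 and Swiss 22 were bright, and the preadipose arrays were dim except those of Swiss 19. Class and brightness can therefore hardly be told apart in these folds. Within the non-adipogenic class the order Swiss 3, Swiss 5, Swiss 22 held on all 4 Clu probe sets. Swiss 3 was 4.83-fold, 3.58-fold, 4.65-fold and 3.48-fold above the mean of Swiss 5 and Swiss 22, in the same order. Swiss 5 was 1.91-fold and 1.77-fold above Swiss 22 on 1454849_x_at and 1418626_a_at with no overlap of arrays, and 1.33-fold and 1.41-fold above it on 1437458_x_at and 1437689_x_at with no overlap of arrays either. Swiss 3 had both dim and bright arrays. On the brightest Clu probe set its dim arrays had 5899.6 and 6422 and its bright array 7204. On 1418626_a_at its dim arrays had 2915 and 2506 and its bright array 2183. The part of brightness in the Clu values was not tested. Within the dim arrays, which hold 3 preadipose lines and Swiss 3, the log2 difference of preadipose over non-adipogenic lines was -2.55. Within the bright arrays, which hold Swiss 19 and the 3 non-adipogenic lines, it was -1.66. Among preadipose lines the order of Clu changed with the probe set, and Swiss 8 and Swiss 19 were the lowest pair on all 4. Line means of the 4 probe sets correlated with each other at r = 0.971 to 0.985 (Pearson, 7 lines, 6 pairs, from the same arrays).

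**Figure D1:**
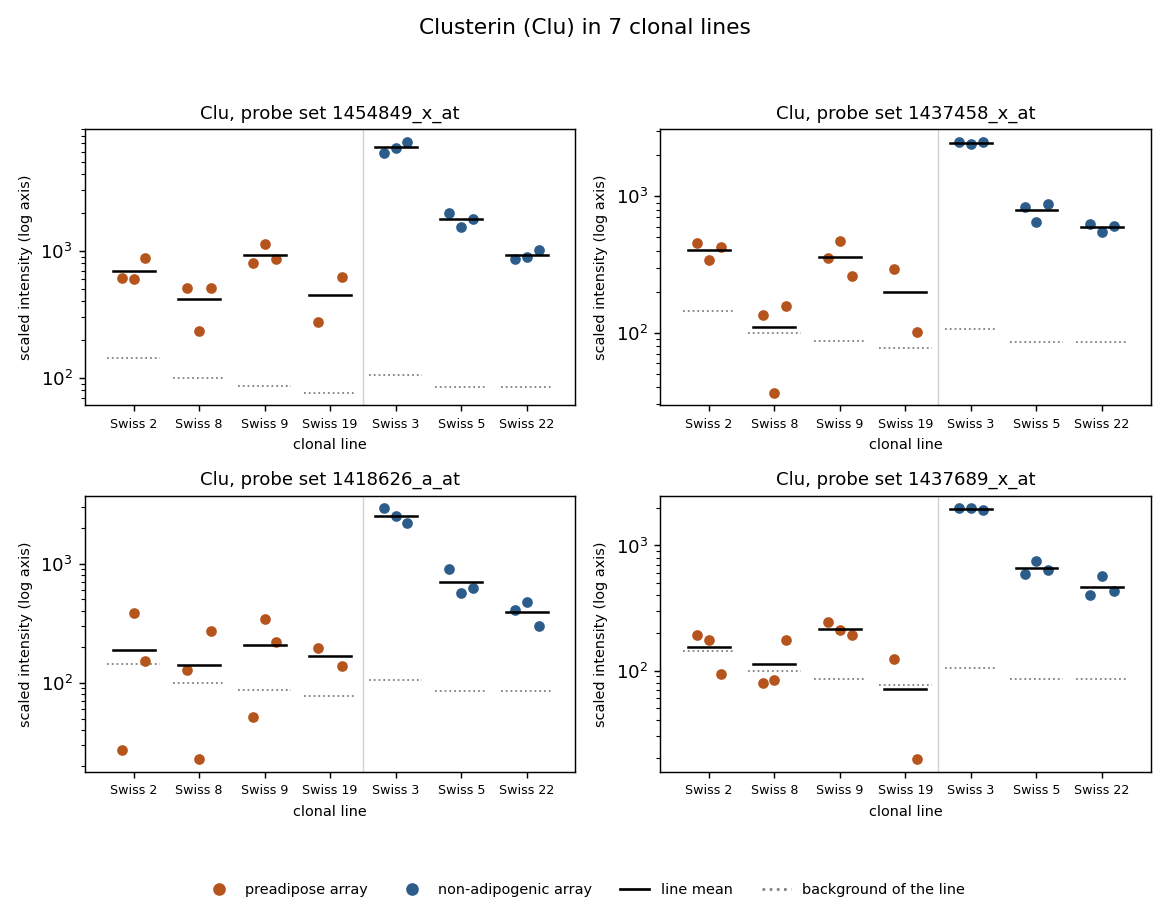
Scaled intensity (log axis) of the 4 Clu probe sets on each array, by clonal line, with preadipose lines left of the grey divider. Black bars are line means and dotted lines the background of each line. Swiss 3 lies highest on all 4 probe sets, and Swiss 22 reaches down to the preadipose lines on 1454849_x_at, where its mean is 927 and that of Swiss 9 is 928.

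Serping1 was high in 1 line, the preadipose line Swiss 9. Its only probe set had 2140.4, 2679 and 2617 in Swiss 9. Of the other preadipose lines, Swiss 2 had 274, 288 and 229.5, Swiss 8 had 156, 195 and 85.4, and Swiss 19 had 279 and 293. Of the non-adipogenic lines, Swiss 3 had 295, 192 and 338, Swiss 5 had 201, 98.9 and 166, and Swiss 22 had 243, 239 and 279.8. The lowest array of Swiss 9 lay 6.34-fold above the highest of the 17 other arrays. Swiss 9 averaged 2479 ± 295 (SD, n = 3 arrays), against 229.9 ± 62.6 over the means of the 6 other lines (SD), a 10.8-fold excess. Outside Swiss 9, all arrays of Swiss 8 and Swiss 5 lay below all arrays of Swiss 2, Swiss 19 and Swiss 22, and those of Swiss 3 overlapped with all 5. Serping1 averaged 794 ± 1125 (SD, n = 4) in preadipose lines and 228 ± 64.1 (SD, n = 3) in non-adipogenic lines, with a log2 difference of 0.48, which was -0.019 without Swiss 9. The 3 arrays of Swiss 9 were dim, as were those of Swiss 2 and Swiss 8, where Serping1 was low. The difference between lines within a class made up 86.0% of the variance of its normalized log2 level, and the class 12.4%.

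Cd55 was low to moderate in all lines, and its 3 probe sets ordered the lines differently. Its promoter is shown because Cd55 is the measured gene for which the RefSeq promoter table (GRCm38.p6) has an entry. The stretch runs from 250 bases before to 50 after the annotated start, at chr1:130462695-130462994 on the minus strand. Capitals mark the 3 stretches that match a loose NF-kB word (3 G, any 5 bases, 2 C) on either strand, with overlapping matches joined.
Cd55: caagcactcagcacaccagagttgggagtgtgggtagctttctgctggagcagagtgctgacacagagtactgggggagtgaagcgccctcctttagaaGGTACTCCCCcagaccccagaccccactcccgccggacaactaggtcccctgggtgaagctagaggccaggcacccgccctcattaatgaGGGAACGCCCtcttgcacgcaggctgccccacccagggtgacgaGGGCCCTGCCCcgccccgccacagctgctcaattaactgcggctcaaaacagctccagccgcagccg
Of 32851 promoters of the same length, 50.8% hold this word. None of TTNCNNNAA, TTCNNNGAA, TATAAA and CCAAT, which 36.6%, 8.3%, 13.6% and 37.4% of promoters hold, nor the interferon word of GAAA repeated after any 2 bases (3.44%), was found in this window on either strand.

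On the brightest Cd55 probe set, 1418762_at, the preadipose line Swiss 2 had 422, 246 and 249.99, Swiss 8 had 280.0, 220.5 and 344, Swiss 9 had 244, 326 and 383, and Swiss 19 had 101 and 161. The non-adipogenic line Swiss 3 had 185, 162 and 105, Swiss 5 had 145, 170.4 and 225, and Swiss 22 had 81.5, 47.0 and 128.5. Swiss 2, Swiss 8 and Swiss 9 were high and the preadipose line Swiss 19 lay with the non-adipogenic lines, so the classes overlapped. Cd55 averaged 259 ± 86.8 (SD, n = 4) in preadipose and 139 ± 48.3 (SD, n = 3) in non-adipogenic lines, at least 1.87-fold higher in the preadipose class, since Swiss 22 was not above background. Swiss 2, Swiss 8 and Swiss 9 together were at least 2.21-fold above the 4 other lines. These 3 lines hold 9 of the 11 dim arrays. The dim arrays of Swiss 3, at 185 and 162, lay below the lowest array of the 3 lines, at 220.5, on this probe set only. The same Swiss 3 arrays had 332 and 15.0 on 1443906_at, where the lowest array of the 3 lines had 65.6. On 1460242_at they had 140 and 170, and the lowest array of the 3 lines had 65.9. The part of brightness in these values was not tested. The log2 difference of 0.25 was 0.32 within the dim arrays and 0.029 within the bright arrays.

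Probe set 1443906_at gave the preadipose lines Swiss 2, 8, 9 and 19 means of 139 ± 63.5, 216 ± 30.9, 373 ± 20.7 and 125 ± 126, and the non-adipogenic lines Swiss 3, 5 and 22 means of 153 ± 162, 222 ± 108 and 189 ± 32.4 (SD over arrays). Probe set 1460242_at had 214 ± 61.6, 143 ± 83.7, 236 ± 47.4 and 39.9 ± 42.2 in the same preadipose lines and 154 ± 15.0, 113 ± 77.8 and 92.9 ± 25.2 in the non-adipogenic lines. Swiss 9 was the highest line on all 3 probe sets, and no other place in the order was shared by all 3. The preadipose class was 1.13-fold and 1.32-fold higher on these probe sets, less than the spread between lines. Swiss 2 was not above background on 1443906_at, and Swiss 19 was not above it on 1460242_at. The probe sets correlated at r = 0.503 to 0.760 over the 7 line means (Pearson, 3 pairs). The probe set shared with Cd55b was above background on 1 of 20 arrays and in no line.

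Cfb was at the edge of detection. It was above background on 4 of 20 arrays, and Swiss 3 was the 1 line whose mean passed it, at 109 ± 88.6 (SD, n = 3) against a background of 105.9. The preadipose line Swiss 2 had 20.3, 38.6 and 159.8, Swiss 8 had 10.98, 56.8 and 90.7, Swiss 9 had 13.6, 18.6 and 21.5, and Swiss 19 had 50.9 and 51.8. The non-adipogenic line Swiss 3 had 167, 152 and 6.97, Swiss 5 had 50.2, 77.8 and 90.1, and Swiss 22 had 41.1, 14.4 and 17.1. The values of the classes overlapped, and 68.3% of the variance of the normalized log2 level lay between arrays of a line. No fold is given for a gene at this level.

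**Figure D2:**
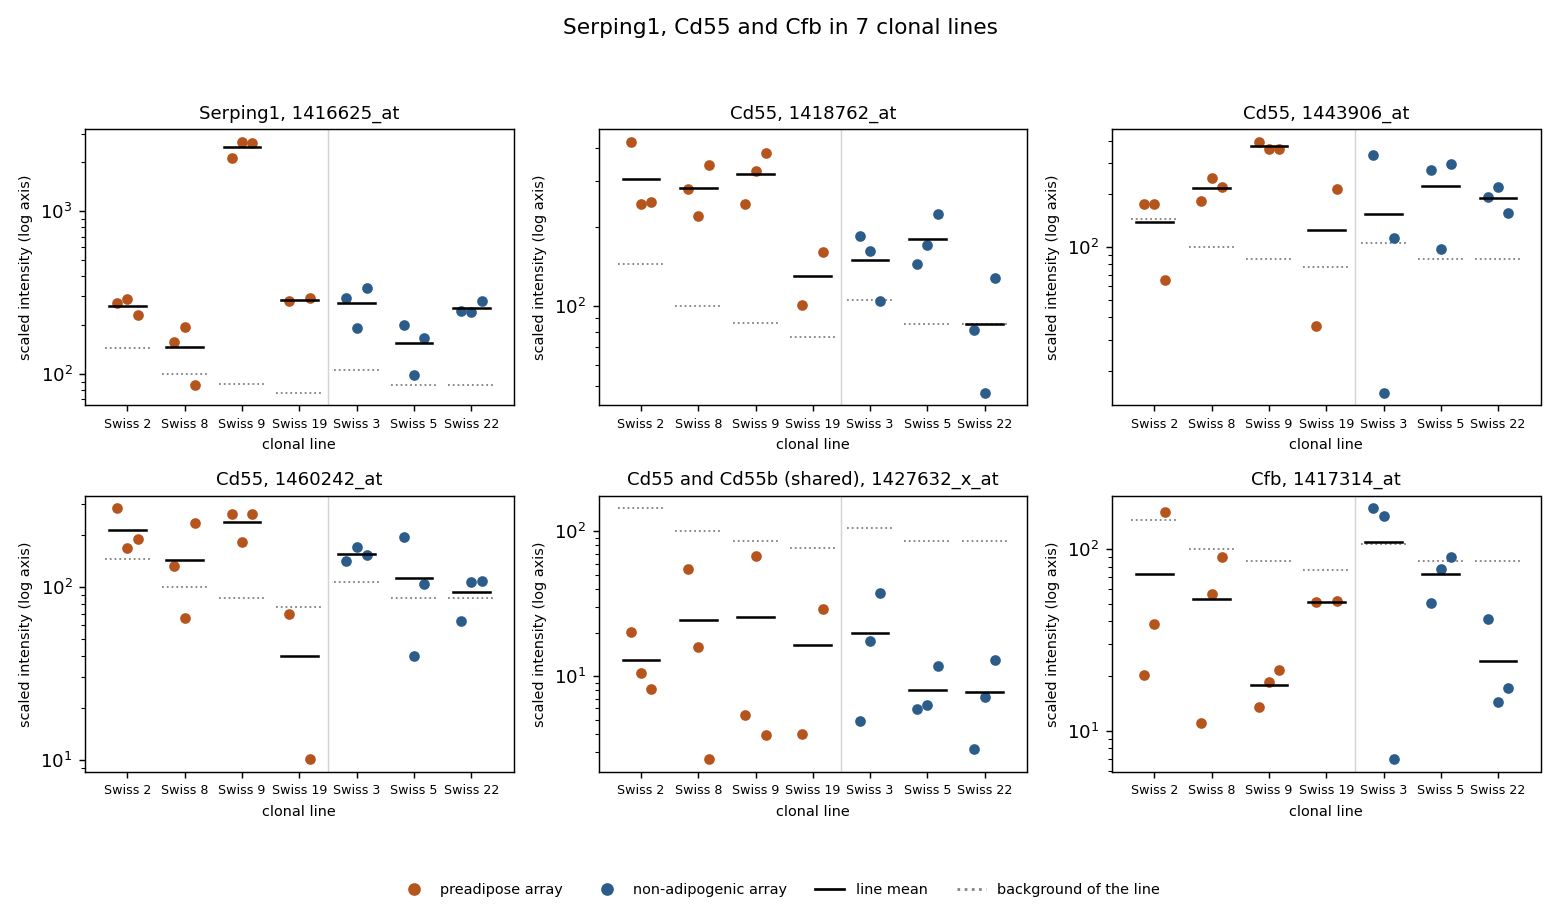
Scaled intensity (log axis) of the probe sets of Serping1, Cd55 and Cfb on each array, by clonal line, with preadipose lines left of the grey divider. Black bars are line means and dotted lines the background of each line. Serping1 in Swiss 9 lies between 2140.4 and 2679, above the other arrays, and most Cfb arrays lie below background.

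Read against the whole array, limma on the 7 line means (Benjamini-Hochberg adjusted p below 0.05) called 279 of 18193 genes between classes, 1.53%. Of all genes 0.583% were called higher and 0.951% lower in preadipose lines. Of the 4 genes 0 were called, and 2 had an unadjusted p below 0.05, against 15.6% of all genes. Clu was called with line as a random block over the arrays. The classes' line means were fully separate for 13.9% of genes (6.39% higher and 7.53% lower in preadipose lines) and, on the brightest probe set, for 0 of the 4. An F test over the 20 arrays called 23.2% of genes among preadipose lines, Clu and Serping1 included, and 16.4% among non-adipogenic lines, Clu included. Nothing is read from these counts, because the genes were chosen with these arrays in view. In bulk RNA, fewer expressing cells and less RNA per cell cannot be told apart.

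Each gene was compared, on its brightest probe set, with 919 or 920 others above background in at least 2 lines and spanning at least 1 log2 unit. Predicted and clone names were passed over. A choice from so many genes over 7 lines favours a high r. For each gene the 3 with the most similar line means were found (Pearson r over 7 lines, normalized log2 values from the same arrays). For Clu they were Renbp, the renin-binding protein (r = 0.975), Gsta4, a glutathione transferase (r = 0.964), and Hscb, an iron-sulfur cluster co-chaperone (r = 0.954). Renbp had 1381, 876, 1321 and 889 in Swiss 2, 8, 9 and 19, against 3156, 1738 and 1475 in Swiss 3, 5 and 22, so it too was highest in Swiss 3. For Serping1 they were the cytokine Il11 (r = 0.937), Vstm2a (r = 0.895) and the quinone reductase Nqo1 (r = 0.810), and these values rest on Swiss 9, where Il11 had 1164, against 125 to 337 in the other lines. For Cd55 they were the proteoglycan Gpc1 (r = 0.944), the pyrophosphate transporter Ank (r = 0.924) and the AP-1 subunit Fosl1 (r = 0.916). These values hold for 1418762_at, with which the other Cd55 probe sets correlated at r = 0.503 and 0.760. Gpc1 had 1112, 908 and 1339 in Swiss 2, 8 and 9 and 430.3 in Swiss 19, against 217, 293 and 196 in Swiss 3, 5 and 22. For Cfb, near background, they were Mest (r = 0.885), Mmp3 (r = 0.866) and Hoxd8 (r = 0.854).

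The rest of the complement system was measured for 42 of 52 listed genes, of which 31 were above background in at least 1 line and 11 in all 7. Over all 18193 genes, 10243 were above background in all 7 lines, and the shares below were not matched for level. Between classes limma called 0 of the 42, against 1.53% of all genes, and 2 had an unadjusted p below 0.05, against 15.6% of all genes. The log2 difference of preadipose over non-adipogenic lines was positive for 23 and negative for 19, with a median of 0.0051 beside 0.0033 over all genes. The F test called 8 of the 42 among preadipose lines, against 23.2% of all genes, and 8 among non-adipogenic lines, against 16.4%, shares near those of all genes. These p-values measure the spread between arrays of a line. Of the 10 genes called in either test, 6 were called in both and 6 were highest in Swiss 3, as were 11 of the 42 and 18.6% of all genes. The F test picks genes with an extreme line, so nothing is read from the 6 of 10.

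The C1 proteases, which Serping1 inhibits, were among them. C1ra averaged 4693 ± 1174, 1946 ± 744, 2056 ± 147 and 3649 ± 35.0 in the preadipose lines Swiss 2, 8, 9 and 19, and 6038 ± 172, 2484 ± 307 and 3362 ± 558 in the non-adipogenic lines Swiss 3, 5 and 22 (SD over arrays). C1s1 averaged 2747 ± 747, 1037 ± 474, 1618 ± 491 and 3613 ± 398 in the same preadipose lines, against 6551 ± 709, 2384 ± 715 and 3356 ± 423 in the non-adipogenic lines. Both were highest in Swiss 3 and lowest in Swiss 8, and Swiss 9, where Serping1 was high, was the second lowest line for each. The limma F test gave C1ra an adjusted p of 0.000245 among preadipose and 0.000184 among non-adipogenic lines, and C1s1 0.000723 and 0.000413. Between classes their log2 differences were -0.31 (SE 0.36, adjusted p = 0.781, limma) and -0.73 (SE 0.42, adjusted p = 0.483).

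Masp1, a lectin pathway protease, averaged 1012 ± 66.5 in Swiss 19 and 508 to 655 in the other preadipose lines, and 1154 ± 245 in Swiss 3 and 508 to 605 in the other non-adipogenic lines (limma F test, adjusted p = 0.00692 and 9.88e-05). Its other probe sets did not all show this order. Colec12, a scavenger collectin, was also highest in Swiss 19 among preadipose lines, at 432 ± 27.1, and in Swiss 3 among non-adipogenic lines, at 631 ± 131 (adjusted p = 0.0447 and 0.00618, limma). Itgb2, the beta chain of the leukocyte complement receptors, had 165 ± 51.2 in Swiss 19 and 26.4 ± 10.7, below background, in Swiss 9, and 372 ± 71.5 in Swiss 3 (adjusted p = 0.0364 and 0.00593, limma). C1qbp, a mitochondrial protein that binds C1q, had the opposite order, lowest in Swiss 3, at 10946 ± 527, and highest in Swiss 9, at 22770.3 ± 876 (adjusted p = 0.000211 and 0.000157, limma).

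**Figure D3:**
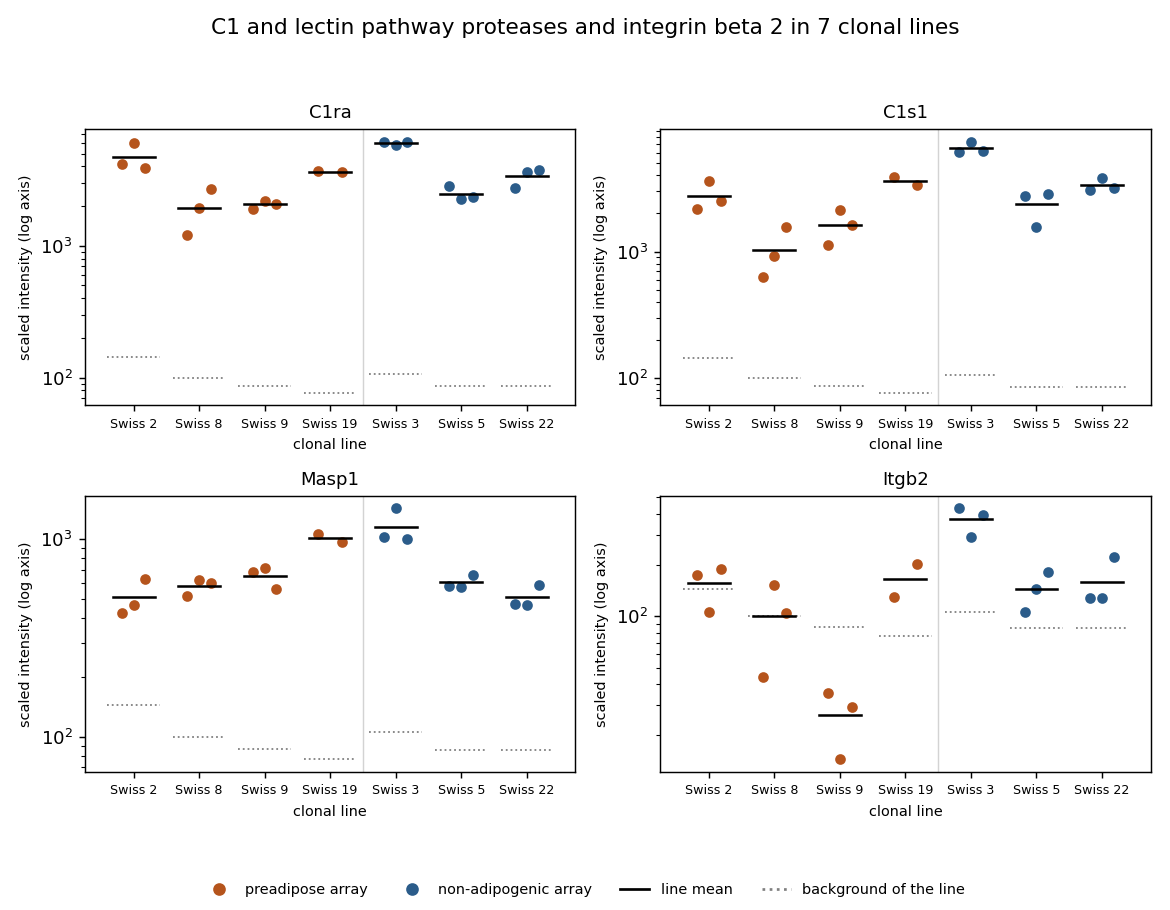
Scaled intensity (log axis) of C1ra, C1s1, Masp1 and Itgb2 on each array, by clonal line, with preadipose lines left of the grey divider. Black bars are line means and dotted lines the background of each line. Swiss 3 has the highest mean of each gene, 6038 for C1ra and 6551 for C1s1.

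Among preadipose lines alone the F test also called the membrane regulators Cr1l, from 1101 ± 54.2 in Swiss 19 to 1738 ± 299 in Swiss 9 (adjusted p = 0.0141, limma), and Cd59a, from 618 ± 118 in Swiss 9 to 1182 ± 62.5 in Swiss 19 (adjusted p = 0.0193). The other probe sets of Cr1l did not show its order. Among non-adipogenic lines alone the F test called properdin, Cfp, which stabilizes the alternative convertase, at 325 ± 65.6 in Swiss 3 and 50.1 ± 24.2 in Swiss 5 (adjusted p = 0.00731, limma), and C8g, above background in Swiss 3 alone at 269 ± 67.4 (adjusted p = 0.00388). Whether these genes vary more in 1 class than in the other was not tested. Of the genes named for their class difference, C2, the classical pathway protease, averaged 471 ± 78.8 in preadipose and 606 ± 73.1 in non-adipogenic lines (SD over lines, log2 difference -0.21, limma adjusted p = 0.315). Cd93 averaged 119 ± 40.8 and 79.7 ± 20.6 (log2 difference 0.091, limma adjusted p = 0.708). Without replicate 2 or replicate 1 of Swiss 19, 4 or 5 of the 42 genes were called among preadipose lines. In all 20 fits that leave out 1 array, C1ra, C1s1 and C1qbp were called among preadipose lines. Among non-adipogenic lines 8 genes were called in all 20 such fits.

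**Figure D4:**
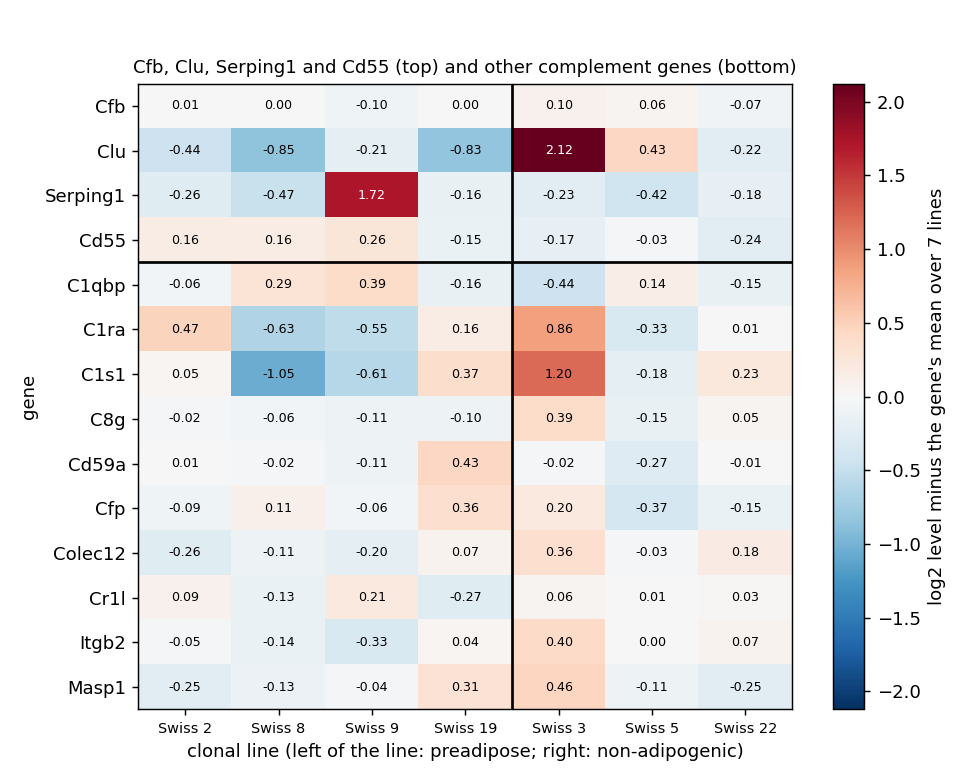
Normalized log2 level of each gene in each clonal line minus its mean over the 7 lines (colour and printed value), with preadipose lines left of the black divider. Clu reaches 2.12 in Swiss 3 and Serping1 1.72 in Swiss 9, while C1s1 has 1.20 in Swiss 3 and -1.05 in Swiss 8.

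Of 4 clusterin receptors, limma called 0 between classes (0 at an unadjusted p below 0.05). Vldlr differed among preadipose lines, where it averaged 1844 ± 487 in Swiss 2 and 781 ± 25.5 in Swiss 9 (adjusted p = 5.35e-05, limma F test). It also differed among non-adipogenic lines, with 1508 ± 185 in Swiss 3 and 1015 ± 134 in Swiss 5 (adjusted p = 0.0467). The 10 interferon response genes measured, none called between classes, had 2 at an unadjusted p below 0.05, against 15.6% of all genes. Swiss 3, where Clu was highest, was the highest line for 9 of the 10, against 18.6% of all genes. Their summed level was 5052 to 7791 in preadipose lines, and 17394 in Swiss 3, 6564 in Swiss 5 and 7431 in Swiss 22. Their part in the Clu values was not tested.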

How the data were processed

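Biotin-labelled cRNA from total RNA of 20 samples was hybridized to 1-colour 3' arrays. The deposited values are linear intensities per probe set. How the authors summarized and scaled them is not given in the sources used here. After 64 control probe sets were left out, log2(intensity + 32) was quantile-normalized, and each gene was represented by its brightest probe set with 1 symbol. Scaled intensity sets each array's mean, trimmed by 2% at each end, to 500. Classes were compared with limma 3.58.1 (R 4.3.3) on 7 line means, and lines within a class with its F test on 20 arrays, with Benjamini-Hochberg adjustment over 18193 genes at 0.05. Both were tested on simulated data. Named were every probe set of the 6 genes, every other complement gene called, and, in a role list with none called between classes, up to 2 with the largest class difference. A fold against a class with a line below background is a lower bound. The genes and lists were chosen with earlier results of these data known. The number of arrays limits the precision.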

Additional observations from a re-analysis of the deposited data

Results flagged for a closer look

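Among the 4 preadipose line means, Swiss 9 stood apart from the nearest other line for 2 of the 10 probe sets examined. For Serping1 the gap between Swiss 9 and the next line took up 0.859 of the range of normalized log2 levels, above Dixon's 95% critical value for 4 samples, with Swiss 9 high. For Cfb the share was 0.863, with Swiss 9 low, at 13.6 to 21.5 of scaled intensity, where no preadipose line mean of Cfb was above background. Chance flags about 1 in 20 groups. The genes were selected on these same intensities, so both values are descriptions and not tests.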

How the results depend on the processing

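The log2 differences of preadipose over non-adipogenic lines moved as follows. With arrays centred on medians Cfb was 0.055. Without normalization Cd55 was 0.042 and Serping1 0.26. Scaling before the pseudocount gave Cfb -0.25, Cd55 0.73 and Serping1 0.78. A pseudocount of 8 gave Cfb -0.13 and Cd55 0.51, and the larger pseudocount gave Cd55 0.090, Serping1 0.25 and Clu -0.82. With brightness as a block Clu was -2.10. With the mean of all probe sets Cd55 was 0.12. Within the dim arrays Cfb was -0.25 and Clu -2.55, and within the bright arrays Cfb was 0.051, Cd55 0.029 and Serping1 0.069. Leaving out 1 array gave -0.090 to -0.029 for Cfb, -1.42 to -1.29 for Clu, 0.46 to 0.51 for Serping1 and 0.22 to 0.27 for Cd55. Leaving out 1 line gave -0.10 to -0.015 for Cfb, -1.86 to -0.69 for Clu, -0.019 to 0.71 for Serping1 and 0.20 to 0.34 for Cd55. The causes were not tested.

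Genes called higher and lower in preadipose lines, 106 and 173, became 1 and 6 with arrays centred on medians, 0 and 2 without normalization, 36 and 64 with scaling before the pseudocount, 0 and 0 within the bright arrays, and 972 and 1089 with line as a random block. Higher calls were 58 with the larger pseudocount, 169 among genes above background and 189 within the dim arrays. Leaving out 1 array gave 74 to 122 and 143 to 204, and leaving out 1 line 17 to 182 and 38 to 288. Clu was called between classes with the random block. Nothing is read from this call, because Clu was chosen on these same intensities. Of the other complement genes 2 were called between classes with the random block (Colec12 and Itgb2) and 0 without any array or line. Of the interferon, acute phase and clusterin receptor genes, 1 was called with scaling before the pseudocount (Hp), 2 with brightness as a block (Il6 and Relb), 5 within the dim arrays and 9 with the random block, 0 without any 1 array, and 0 to 1 without 1 line. Among preadipose lines the F test called 12490 genes with median centring and 12732 without normalization, and 19 and 23 other complement genes. Among non-adipogenic lines it called 10751 and 11527, and 18 and 18. Leaving out 1 array gave 3126 to 4346 genes and 4 to 8 complement genes among preadipose lines, and 2407 to 3129 and 8 to 9 among non-adipogenic lines.

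Replicate numbers did not pair the arrays. After each line's mean was subtracted per gene, the deviations of same-number arrays of different lines correlated at -0.068 to 0.094. For 5 of 20 arrays, the best correlated array of another line had the same number. With the replicate block the log2 differences were -0.048 for Cfb, -1.35 for Clu, 0.49 for Serping1 and 0.26 for Cd55, and 109 and 183 genes were called.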

Other observations

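Of the 19 acute phase and NF-kB response genes measured, the limma F test called 14 among preadipose lines, against 23.2% of all genes, and 10 among non-adipogenic lines, against 16.4%. Above background in all 7 lines were 16 of the 19, 9 of the 10 interferon response genes and 10243 of all 18193 genes. The shares were not matched for level. Between classes 0 of the 19 were called and 6 had an unadjusted p below 0.05, against 15.6% of all genes, with a median log2 difference of -0.11 beside 0.0033 over all genes. Of the 10 interferon response genes measured, the F test called 6 among preadipose lines, against 23.2% of all genes, and 8 among non-adipogenic lines, against 16.4%. All 10 class differences were negative, with a median of -0.22, as were 8845 of 18193 over all genes. Swiss 3 was the highest line for 9 of the 10. The summed level in Swiss 5, 6564, and in Swiss 22, 7431, lay within the preadipose range of 5052 to 7791.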
